A study of Mus musculus with 6 samples.

Results

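The CHD chromatin remodelers examined here were the 8 genes Chd1, Chd2, Chd3, Chd4, Chd6, Chd7, Chd8 and Chd9, taken by gene name from a table of 24012 genes, and all 8 were found there. The family was chosen by an earlier reading of the same counts, in which Chd9 was lower in both histone marks in 1 of the mutants, so the ratios of its members below are descriptions and none was tested. The values came from chromatin immunoprecipitation followed by sequencing (ChIP-seq) of mouse primary hematopoietic progenitor cells, taken from bone marrow and transduced with a retrovirus that expressed the fusion protein MLL-AF9. The fusion was unmutated (WT) or carried the exchange D544R or D546R, and chromatin of each of these 3 genotypes was precipitated with an antibody against H3K79me2 (Abcam ab3594) or H3K79me3 (Diagenode), di- and trimethylation of lysine 79 of histone H3. This gave 6 groups of 1 library, every one of them from cells with a virally expressed fusion, and cells without the fusion were not analysed here. The sources used here do not give the strain, age and sex of the mice or the number of cultures behind a library, so what separates the libraries beyond genotype cannot be told apart from it. A lower mark in every cell and a loss in part of the cells cannot be told apart in such bulk chromatin.

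CHD proteins slide, space or exchange nucleosomes with a SNF2-type ATPase motor, and they carry tandem chromodomains ahead of it, which bind methylated histone tails in several members. They fall into subfamilies. Chd1 and Chd2 have a DNA-binding domain behind the motor and work on transcribed genes. Chd3 and Chd4 have PHD fingers and are the motors of the NuRD complex, which pairs remodeling with histone deacetylation and is needed in blood progenitors. Chd6, Chd7, Chd8 and Chd9 form the subfamily with BRK domains. Chd7 is mutated in CHARGE syndrome and binds enhancers, and Chd8 is a regulator of beta-catenin targets that is linked to autism. H3K79 is methylated by DOT1L over the bodies of transcribed genes, mostly toward their 5′ end. AF9 is a partner of DOT1L, and the fusion brings the enzyme to the genes it binds.

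Each value was a read count over a window that, per the file header, opened 2 kb ahead of the transcription start and closed where the transcript ended, in mm9 coordinates. The table gives no strand and the window start is the lower coordinate in all 24012 genes, so for a minus-strand gene such as Chd6 or Chd8 the 2 kb may lie beyond the transcript end, which was not tested. The largest window was that of Chd9 (NM_177224, chromosome 8, 93350733 to 93578407), 228 kb long and longer than 96.9% of all windows. Chd7 (NM_001277149, chromosome 4, 8615552 to 8795596) spanned 180 kb and Chd6 (NM_173368, chromosome 2, 160770713 to 160934792) 164 kb. Chd2 (NM_001081345, chromosome 7, 80569537 to 80686632) spanned 117 kb and Chd1 (NM_007690, chromosome 17, 15839930 to 15909576) 69.6 kb. The remaining 3 were shorter. They were Chd8 (NM_201637, chromosome 14, 52815825 to 52857247) with 41.4 kb, Chd4 (NM_145979, chromosome 6, 125044180 to 125080519) with 36.3 kb and Chd3 (NM_146019, chromosome 11, 69154774 to 69182928) with 28.2 kb. The windows of Chd1, Chd6, Chd7 and Chd9 overlapped no other gene of the table. Chd2 shared 3.37% of its window with a neighbour, Chd3 4.89% with its antisense gene Chd3os, Chd4 7.39% with Nop2 and Mir7045, and Chd8 7.70% with Supt16 and Snord8, so a small part of their counts can belong to those genes.

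The windows are too coarse to place the marks within a gene, and Chd9 has starts far apart inside its own. RefSeq promoters (build GRCm38.p6) were given for 4 of the 8 members: Chd4, Chd6, Chd8 and Chd9. The 250 bases ahead of the start are printed for both starts of Chd9, the member lower in both marks, to show which of them the window opened at, and for Chd6, a subfamily partner with a long window and a low level. Capitals mark each CG dinucleotide, the site of DNA methylation that is dense in the promoters of widely active genes.
Chd9, first start, chr8:90828585-90828834, plus strand: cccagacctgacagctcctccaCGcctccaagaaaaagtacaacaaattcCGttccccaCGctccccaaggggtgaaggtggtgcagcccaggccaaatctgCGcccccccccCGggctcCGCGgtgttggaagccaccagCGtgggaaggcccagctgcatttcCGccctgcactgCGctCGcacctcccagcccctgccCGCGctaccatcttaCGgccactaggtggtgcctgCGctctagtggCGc
Chd9, second start, chr8:90931999-90932248, plus strand: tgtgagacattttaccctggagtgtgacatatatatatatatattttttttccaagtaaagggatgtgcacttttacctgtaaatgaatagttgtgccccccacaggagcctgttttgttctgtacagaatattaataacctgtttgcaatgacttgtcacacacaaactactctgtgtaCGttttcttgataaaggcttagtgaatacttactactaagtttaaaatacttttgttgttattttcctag
Chd6, chr2:161109087-161109336, minus strand: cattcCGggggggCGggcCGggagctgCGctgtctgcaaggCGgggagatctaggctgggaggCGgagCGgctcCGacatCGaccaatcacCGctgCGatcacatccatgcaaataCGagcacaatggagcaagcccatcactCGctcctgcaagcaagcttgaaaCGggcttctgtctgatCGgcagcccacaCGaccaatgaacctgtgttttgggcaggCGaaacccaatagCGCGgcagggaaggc
The first Chd9 promoter held 16 CG and Chd6 19, and 25.4% and 19.7% of the 32851 promoters in the table held at least as many (median 6). The second Chd9 start, 103 kb farther in, held 1 CG, and 92.1% of promoters held at least as many. From the first start to the end of the gene there are 225682 bases in GRCm38.p6. The counted Chd9 window, less its 2 kb lead, has 225674 bases in mm9, 8 fewer, so by its length it opened at the CG-rich start and held the other start inside it. For Chd6 the lengths differed by 30 bases. For Chd8 they differed by 20188, with 59610 bases from its listed start to the gene end and 39422 in the window less 2 kb. By its length the Chd8 window thus did not hold the whole gene from that start, and which part it lacked was not tested.

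Library totals ran from 3558329 to 5993741 counts in H3K79me2 and from 5207395 to 6652571 in H3K79me3. Counts were divided by median-of-ratios size factors within each mark, and called normalised counts. Reads per independent fragment, estimated from short windows with no count, were 3.26 to 4.78 in H3K79me2. In H3K79me3 they were 9.73 in WT, 8.12 in D544R and 18.6 in D546R, so the D546R library of that mark held the fewest independent fragments per read. Log2 ratios are given with a 95% counting interval, and where it is named with a fragment interval, the same interval after the counts were divided by those estimates. Both cover counting error only and not variation between cultures. The 12 blood progenitor and myeloid markers summed to 5.95, 6.59 and 8.92 times the counts per kb of silent genes in WT, D544R and D546R in H3K79me2, and to 2.58, 2.19 and 2.86 times in H3K79me3. Markers of B cells, T cells, erythroid cells and megakaryocytes, stroma and endothelium stayed between 0.678 and 1.47 times in all 6 libraries. The blood markers were therefore highest in D546R, and their part in the ratios below was not tested.

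In WT cells the family covered a wide range of levels. Levels are compared here per kb, as a multiple of the counts per kb of 32 genes that are silent in blood, such as the albumin gene. In H3K79me2 Chd7 stood highest at 11.5 times (95% Poisson interval 11.3 to 11.8), above 98.5% of all genes per kb. Chd2 and Chd9 followed at 7.31 (7.04 to 7.60) and 7.21 (7.01 to 7.41), whose intervals overlapped, and Chd1 at 5.12. Chd8, Chd4 and Chd6 lay close together with 4.48, 4.44 and 4.05 normalised counts per kb, all under 2 times the silent genes, and Chd3 at 1.22 times was near the silent genes. In H3K79me3 the span was narrower. Chd7 stood at 5.04, Chd9 at 3.56, Chd2 at 3.43, Chd1 at 2.36, Chd8 at 1.74, Chd6 at 1.27, Chd4 at 1.22 and Chd3 at 0.708. So 4 members, Chd1, Chd2, Chd7 and Chd9, were at least 2 times the silent genes in both marks, and the other 4 lay below that in both.

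**Figure D1:**
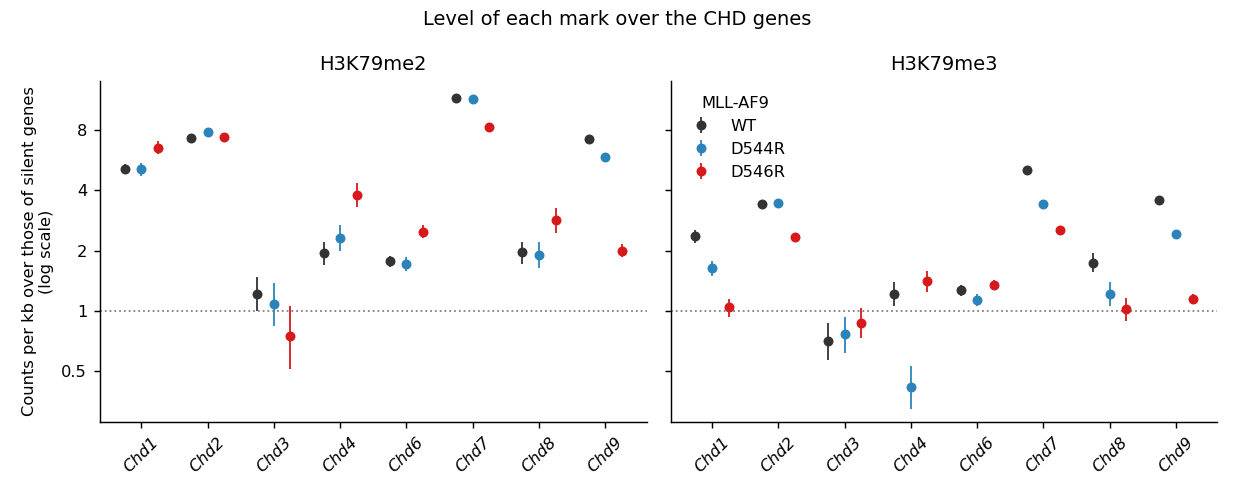
Counts per kb of each CHD gene divided by those of the silent genes (log axis) in WT, D544R and D546R, for H3K79me2 (left) and H3K79me3 (right); points are single libraries, bars 95% Poisson counting intervals, and the dotted line at 1 is the silent level. Chd9 went from 7.21 in WT to 1.99 in D546R in H3K79me2, while Chd2 stayed at 7.31 and 7.35.

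Chd9, the member with the longest gene, had the lowest D546R to WT ratio of the family in both marks. In H3K79me2 it had 5059 counts in WT, 2902 in D544R and 709 in D546R, or 3757, 2985 and 928 after scaling. D546R was thus far below the other 2 libraries, and D544R lay between. Against WT the log2 ratio in D546R was -2.02 (counting interval -2.13 to -1.90, fragment interval -2.27 to -1.77), 4.05-fold lower. A gene is called past the 2-fold rule here when its ratio is at least 2-fold, its counting interval excludes no change and its mean normalised count is at least 100. Chd9 was past it, as were 0.865% of the 8905 genes with that mean in the lower direction and 0.887% in the higher. Among the 899 genes with a mean of at least 1000 it had the second lowest ratio, and 2.22% of those were past the rule on the lower side.

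H3K79me3 over Chd9 followed the same order of libraries. The counts were 3782 in WT, 2465 in D544R and 1362 in D546R, or 3852, 2828 and 1166 after scaling. The log2 ratio of D546R against WT was -1.72 (-1.81 to -1.63, fragment interval -2.11 to -1.36), 3.30-fold lower and past the rule. Calls were far more frequent in this mark: 8.92% of 10824 genes were lower and 6.94% higher, and of the 1083 genes densest in WT 25.3% were lower. Chd9 held place 21 from the bottom among 1247 genes with a mean of at least 1000, of which 5.77% were lower. Lower calls in both marks were made for 0.416% of the 8411 genes that could be called in both, and for 2.34% of the 728 with a mean of at least 1000 in both, as Chd9 has, and Chd9 was the 1 family member among them.

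In D544R Chd9 was closer to WT. Its log2 ratio was -0.33 (-0.40 to -0.27, fragment interval -0.46 to -0.21) in H3K79me2 and -0.45 (-0.52 to -0.37, fragment interval -0.67 to -0.23) in H3K79me3, neither past the rule. Another scale, the median ratio of the silent genes, lowers the whole H3K79me3 table and is called the silent median scale below. It rests mostly on genes with few counts, since only 10 of the 32 silent genes had a mean of at least 100 in H3K79me3. Their median log2 ratio against WT was 0.54 in D546R and 0.38 in D544R over all 32, but -0.43 and 0.02 over those 10. Calls made on this scale alone are therefore weak. On the silent median scale the H3K79me3 ratio of Chd9 in D544R was -1.10 and past the rule. On that scale 25.6% of genes in D546R and 23.7% in D544R were lower than in WT in H3K79me3. In H3K79me2 calls were rare in D544R, with 0.0112% of genes lower and 0.0337% higher, and Chd9 had the ninth lowest ratio of the 899. D544R and D546R were compared with the same WT libraries, so these ratios are not independent. Set directly against D544R, D546R was at -1.68 (-1.81 to -1.57) in H3K79me2, where 0.876% of genes were lower and 0.775% higher. In H3K79me3 it was at -1.28 (-1.38 to -1.18), where 8.31% were lower and 5.77% higher. Chd9 was past the rule in both.

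Chd7, the next longest gene after Chd9, had 6407, 4421 and 2330 counts in H3K79me2 in WT, D544R and D546R, or 4759, 4547 and 3050 after scaling. The WT and D544R libraries were near each other and D546R was lower. The log2 ratio of D546R against WT was -0.64 (-0.71 to -0.57), short of 2-fold. In H3K79me3 it had 4231, 2747 and 2371 counts, or 4309, 3152 and 2029 after scaling, and here D544R also lay apart from WT. D546R was at -1.09 (-1.16 to -1.01), past the rule, and D544R at -0.45 (-0.52 to -0.38), not past it, but at -1.10 and past it on the silent median scale. The fragment interval of D546R, -1.38 to -0.80, reached to less than 2-fold, and with the summed silent genes as the scale the ratio was -0.99, short of the rule.

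The other subfamily partners of Chd9, both of low level, passed the rule in none of the 6 comparisons, though Chd8 did in H3K79me3 on the silent median scale, at -1.40 in D546R and -1.06 in D544R. Chd6, whose window is nearly as long as that of Chd7, had 895, 612 and 638 counts in H3K79me2 and 971, 833 and 1155 in H3K79me3. In D546R its log2 ratios were 0.33 (0.18 to 0.48) and -0.00 (-0.13 to 0.12). In D544R they were -0.08 and -0.05, with counting intervals that included no change. The H3K79me3 ratio in D546R turned to -0.54 with the median ratio of the silent genes as the scale. Its normalised counts in H3K79me3, 989, 956 and 988, were nearly level across the genotypes. Chd8, whose window was 20188 bases too short to reach from its listed start to the gene end, may have a level and ratios that miss part of the gene. It had 250, 171 and 183 counts in H3K79me2 and 337, 225 and 220 in H3K79me3. Its ratio in D546R was 0.37 (0.08 to 0.65) in H3K79me2 and -0.87 (-1.12 to -0.62) in H3K79me3, and the fragment intervals of both, -0.25 to 0.97 and -1.96 to 0.12, included no change.

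**Figure D2:**
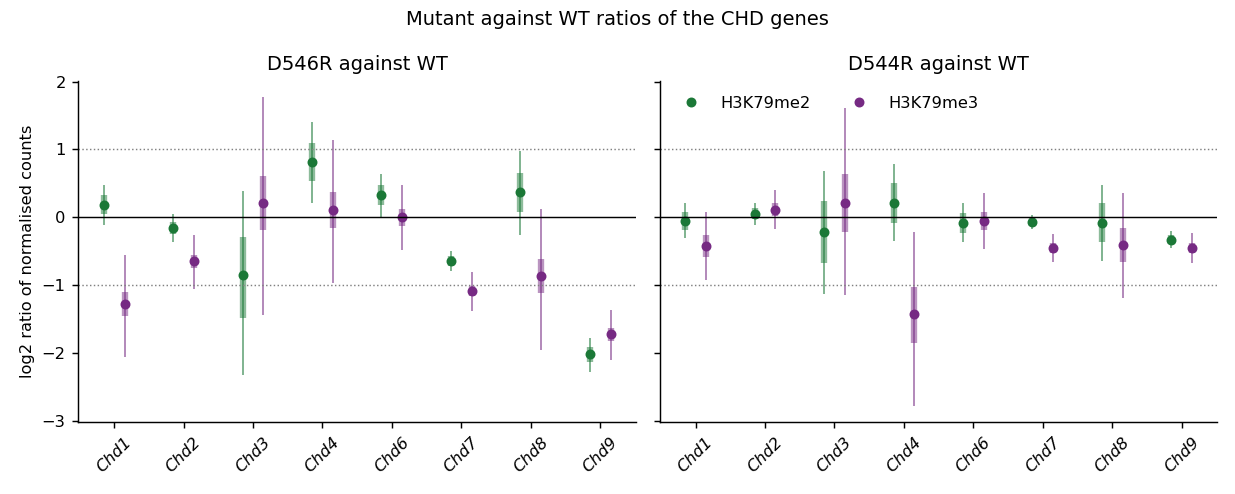
Log2 ratio of normalised counts of each CHD gene in D546R (left) and D544R (right) against WT, with H3K79me2 in green and H3K79me3 in purple; thick bars are 95% counting intervals, thin bars fragment intervals, and dotted lines mark 2-fold. Chd9 is below -1 in both marks in D546R (-2.02 and -1.72), Chd1 and Chd7 in H3K79me3 alone, and in D544R Chd4 in H3K79me3.

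Chd1 and Chd2, the pair that acts on transcribed genes, kept H3K79me2. Chd1 had 1099, 767 and 709 counts in that mark, or 816, 789 and 928 after scaling, and D546R was the highest of the 3. The log2 ratio in D546R was 0.19 (0.05 to 0.32) and its fragment interval, -0.11 to 0.48, included no change. In H3K79me3 Chd1 had 766, 507 and 377 counts, or 780, 582 and 323 after scaling. D546R, the highest library in the other mark, was the lowest here, and D544R was below WT in both. The log2 ratio was -1.27 (-1.46 to -1.09, fragment interval -2.06 to -0.55), past the rule, and -0.42 (-0.59 to -0.26) in D544R, not past it, but -1.08 and past it on the silent median scale.

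Chd2 had 2639, 1979 and 1343 counts in H3K79me2 and 1872, 1794 and 1420 in H3K79me3. After scaling these were 1960, 2035 and 1758, and 1907, 2058 and 1215. In both marks D544R was the highest and D546R the lowest. D546R against WT gave -0.16 (-0.25 to -0.06) in H3K79me2, a value that turned to 0.02 when the median ratio of the silent genes set the scale, and -0.65 (-0.75 to -0.55) in H3K79me3. Neither was past the rule, nor were the D544R ratios of 0.05 and 0.11, the second of which turned to -0.54 on that scale. The H3K79me3 ratio in D546R went to -1.19 there, past the rule.

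Chd3 and Chd4, the NuRD motors, had few counts. Chd4 had 217, 182 and 216 counts in H3K79me2, or 161, 187 and 283 after scaling, and its log2 ratio in D546R was 0.81 (0.53 to 1.09, fragment interval 0.21 to 1.41), the highest of the family but short of 2-fold. In H3K79me3 it had 207 counts in WT, 68 in D544R and 266 in D546R, so the D544R library alone was low. Per kb these were 1.22, 0.420 and 1.41 times the silent genes. WT and D546R were thus near the silent level and D544R below it, so the calls below do not show loss of a mark above background. D544R against WT was at -1.43 (-1.85 to -1.03, fragment interval -2.79 to -0.22), past the rule, as were 3.02% of genes on the lower side and 4.36% on the higher. D546R against D544R was at 1.54 (1.16 to 1.95, fragment interval 0.22 to 2.97), also past it. Chd4 was the 1 member whose mark was lower in D544R than in D546R past the rule, and with a mean of 172 it would not be called at a minimum of 300. Chd3 had 106, 66 and 33 counts in H3K79me2 and 93, 96 and 128 in H3K79me3. Its mean in H3K79me2, 63.3, was under the minimum of 100, and its ratios in D546R were -0.85 (-1.48 to -0.29, fragment interval -2.32 to 0.38) and 0.21 (-0.19 to 0.61, fragment interval -1.45 to 1.78). The counting interval in H3K79me2 excluded no change and the fragment interval did not.

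Over the 8 members, 7 had a mean of at least 100 in H3K79me2 and all 8 in H3K79me3. In D546R against WT 1 was lower in H3K79me2, beside 0.865% of all genes with that mean, and 3 in H3K79me3, beside 8.92%, with none higher. The medians over all 8 members were 0.01 and -0.76, beside 0.07 and -0.03 for all genes with that mean. In H3K79me2 the 2 sets are unlike, since the 8 members include Chd3, which was under that mean. Of the 7 members with that mean, Chd1 held the middle ratio in H3K79me2, 0.19. The medians of the densest 10% of genes in WT were 0.13 and -0.57, and 3.7% and 25.3% of those genes were lower. In D544R against WT 0 members were past the rule in H3K79me2 and 1 was lower in H3K79me3, beside 0.0112% and 3.02% of all genes, with medians of -0.07 and -0.42. In D546R against D544R 1 was lower in H3K79me2, beside 0.876%. In H3K79me3 1 was lower and 1 higher, beside 8.31% and 5.77%. With the median ratio of the silent genes as the scale, the whole H3K79me3 table shifted by -0.54 in D546R and -0.65 in D544R against WT. There 5 members were lower in each mutant, beside 25.6% of all genes in D546R and 23.7% in D544R. The Chd3 and Chd4 ratios of D546R in H3K79me3 turned negative on that scale, to -0.33 and -0.43.

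**Figure D3:**
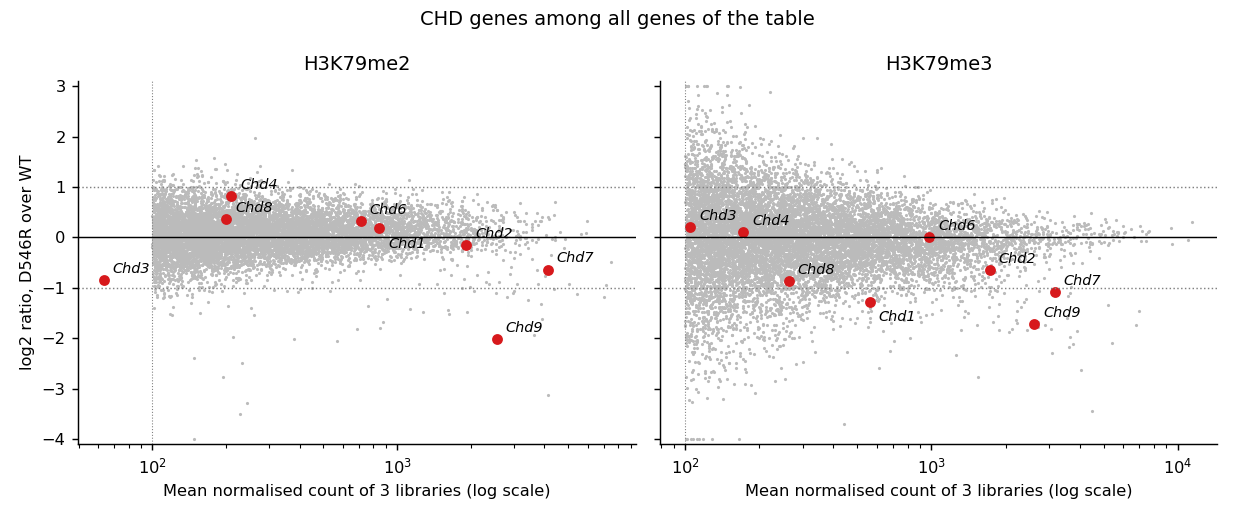
Log2 ratio of D546R over WT against the mean normalised count (log axis) for all genes with a mean of at least 100 (grey, drawn at -4 or 3 where beyond) and the 8 CHD genes (red), in H3K79me2 (left) and H3K79me3 (right); dotted lines mark 2-fold and the mean of 100. In H3K79me2 Chd9 at -2.02 lies below nearly all genes of its count, and in H3K79me3 Chd9, Chd7 and Chd1 lie below 2-fold.

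A ratio of total counts includes the background of a long window, so the signal above the silent genes was also compared, a measure chosen after the values were seen. It was computed for the 4 members at 2 or more times the silent level in both marks in WT, a choice that favours lower values in the mutants, so the shares are a description only. In D546R Chd9 kept 16.0% of its WT signal above background in H3K79me2 (fragment interval 9.29 to 22.7) and 5.90% in H3K79me3 (-6.04 to 17.8), an interval that includes none left. Chd7 kept 69.1% and 38.0%, and Chd2 101% and 54.9%. Chd1 had 134% in H3K79me2 and 3.06% in H3K79me3 (-31.9 to 38.0). In D544R Chd9 kept 78.7% and 55.9%, Chd7 98.1% and 60.1%, Chd1 99.2% and 46.7%, and Chd2 108% and 101%. The H3K79me3 shares depend on how the background is set. With the median ratio of the silent genes Chd9 stood at -10.1% in D546R and 25.9% in D544R, Chd7 at 15.7% and 33.3%, Chd1 at -24.2% and 8.72%, and Chd2 at 20.7% and 55.8%. The H3K79me2 shares moved little on that scale, with Chd9 at 16.3% in D546R and 80.9% in D544R.

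The order of levels within the family changed accordingly. Chd9 held the third place of 8 per kb in H3K79me2 in WT and D544R and the seventh in D546R, where it lay under Chd4, Chd6 and Chd8, all of which had been far below it in WT. Its share of genes with a lower level per kb went from 95.5% in WT to 92.9% in D544R and 65.7% in D546R. In H3K79me3 it went from 95.3% to 92.1% and 53.9%. Chd7 and Chd2 kept the first 2 places in H3K79me3 in D544R and D546R, with overlapping intervals, whereas in WT Chd7 stood alone ahead of Chd9 and Chd2.

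The marks differed in how the family members moved. For D546R against WT, the H3K79me2 log2 ratio was subtracted from the H3K79me3 one. The difference was largest in size for Chd1 at -1.46 (fragment interval -2.22 to -0.70) and Chd8 at -1.23 (-2.35 to -0.12). It was -0.49 (-0.93 to -0.06) for Chd2 and -0.45 (-0.77 to -0.12) for Chd7. The fragment intervals of these 4 members excluded no difference. The fragment intervals of Chd4 at -0.70 (-1.82 to 0.42) and Chd6 at -0.33 (-0.88 to 0.22) included no difference. Chd3 at 1.06 (-0.80 to 2.91) and Chd9 at 0.29 (-0.14 to 0.73) had the opposite sign, also with fragment intervals that included no difference. On the silent median scale the difference of Chd9 turned to -0.42 and that of Chd3 was 0.34. In D544R the differences of Chd9, -0.11 (-0.36 to 0.14), and Chd1, -0.37 (-0.91 to 0.17), included none either, while that of Chd7 was -0.39 (-0.62 to -0.16) and that of Chd4 -1.64 (-2.91 to -0.37).

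The genes around Chd9 did not share its ratio. Within 1 Mb the table held 6 other genes, of which Aktip and Irx3 had means under 100 in both marks. Rbl2, which encodes a pocket protein related to the retinoblastoma protein, begins 13.5 kb beyond the Chd9 window. It had 318, 216 and 172 counts in H3K79me2 and stood at -0.07 in D546R (-0.35 to 0.20). In H3K79me3 it had 144, 172 and 447 counts and was higher in D546R, at 1.38 (1.11 to 1.66, fragment interval 0.39 to 2.42), past the rule. Fto, which encodes an RNA demethylase, stood at 0.15 and -0.23, the ciliary gene Rpgrip1l at 0.32 and 0.47, and Tox3, on the other side at a gap of 479 kb, at -0.52 and 0.53, H3K79me2 first. None of these 3 was past the rule. In WT all 4 lay lower than Chd9, from 1.01 to 1.85 times the silent genes in H3K79me2. In H3K79me3 Rbl2 stood at 0.553 times in WT, Tox3 at 0.792, Rpgrip1l at 0.910 and Fto at 1.09. These levels were near or under the silent genes, so in H3K79me3 the neighbours could hardly show a loss like that of Chd9. The rise of Rbl2 began from below the silent level.

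**Figure D4:**
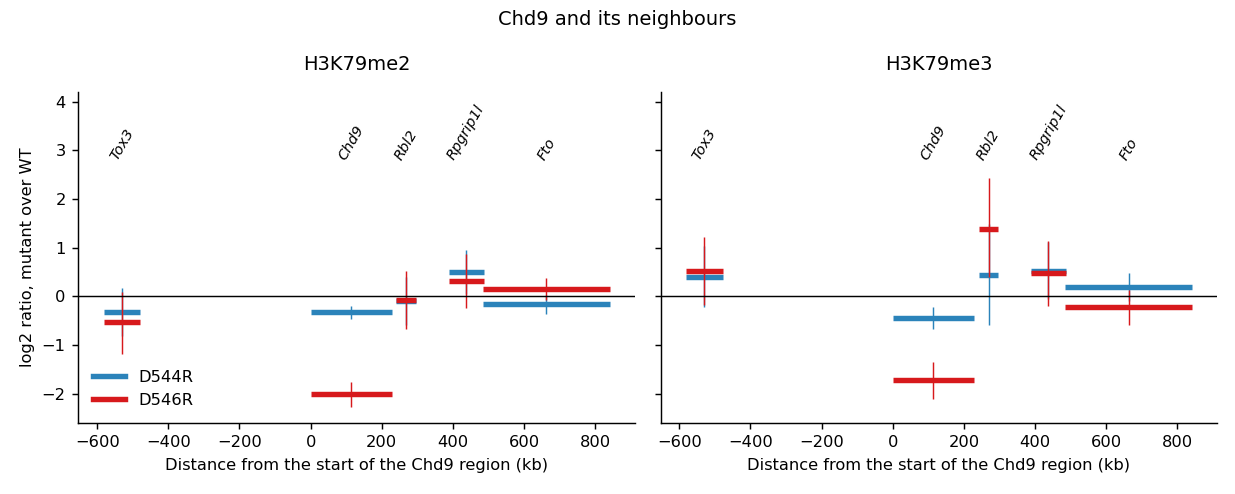
Log2 ratios of D544R (blue) and D546R (red) against WT over Chd9 and the 4 neighbours with a mean of at least 100, by distance from the start of the Chd9 window in kb; each horizontal bar spans a gene's window and each thin line its fragment interval. The Chd9 bar of D546R, at -2.02 and -1.72, is the lowest in both marks.

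The genes most like Chd9 were found by the smallest Euclidean distance over the 4 log2 ratios of D544R and D546R against WT, which rest on 6 libraries and share the WT ones. Of 728 genes with a mean of at least 1000 in both marks, the 5 nearest were Runx2 (distance 0.59), Tnpo1 (0.67), Mef2c (0.88), Cdk13 (0.92) and Arid2 (0.95). Runx2 and Mef2c encode transcription factors, Tnpo1 encodes a nuclear import receptor, Cdk13 an elongation kinase and Arid2 a PBAF remodeler subunit. In D546R they stood at -1.62, -1.48, -1.43, -1.32 and -1.10 in H3K79me2, all above the -2.02 of Chd9. In H3K79me3 they stood at -1.97, -1.57, -1.07, -2.17 and -1.78. In D544R the 5 genes stood, in the same order, at 0.01, 0.01, -0.29, 0.06 and -0.08 in H3K79me2, where Chd9 was at -0.33. Only Mef2c was near Chd9 in that ratio. In H3K79me3 the D544R ratios were -0.37, -0.31, -0.36, -0.31 and -0.54, beside -0.45 for Chd9. Among the genes ranked, Chd7 came at place 35, at a distance of 1.54, and Chd2 at place 115. Runx2 and Mef2c were also on a list of 8 fusion targets kept for reference. In D546R against WT all 8 of that list were lower past the rule in H3K79me2 and 5 in H3K79me3, with none higher. Beside them, 0.865% and 8.92% of all genes were lower. Whether Chd9 is such a target was not tested.

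Other remodeler genes were read from lists, none of which was tested against the family. The family members outside the set were Chd5, a neural NuRD motor, and Chd1l, a remodeler activated by poly(ADP-ribose). Chd5 had 182, 104 and 358 counts in H3K79me3 and Chd1l 281, 313 and 256. Neither was past the rule against WT. Chd5 was higher in D546R than in D544R, at 1.36 (1.04 to 1.69), as were Chd4 and 5.77% of all genes. Of the 12 NuRD partners, 10 had a mean of at least 100 in H3K79me2 and 9 in H3K79me3, and 0 were past the rule in D546R against WT in either mark, where 0.865% and 8.92% of all genes were lower. In H3K79me2 they ran from Mta1 at -0.24 to Mbd2 at 0.72, with a median of 0.19. In H3K79me3 they ran from the histone chaperone gene Rbbp4 at -0.89 to Mbd3 at 2.63, which had 8 and 62 counts, with a median of 0.39. In D544R Mta3 was lower than in WT in H3K79me3, at -1.10, as were 3.02% of all genes. In D546R against D544R the deacetylase gene Hdac1 and Rbbp7 were higher in H3K79me3, where 5.77% of all genes were higher. Hdac1 stood at 1.46 (fragment interval 0.53 to 2.43). Rbbp7 stood at 1.14, and its fragment interval, -0.24 to 2.58, included no change.

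The ISWI remodelers space nucleosomes with the motors Smarca1 and Smarca5. Of the 11 genes listed, 8 had a mean of at least 100 in H3K79me2 and 9 in H3K79me3. In D546R against WT 0 were past the rule in H3K79me2 and 1 was lower in H3K79me3, beside 0.865% and 8.92% of all genes lower. That was Baz2b, a bromodomain partner, with 9470 counts in WT, 6863 in D544R and 3356 in D546R in H3K79me3, a ratio of -1.75. In H3K79me2 it had 10927, 8857 and 3236 counts and stood at -0.94, short of 2-fold. In D546R against D544R it stood at -1.10 in H3K79me2 and -1.46 in H3K79me3, past the rule in both. In that comparison 0.876% and 8.31% of all genes were lower. Its counts were the highest of the list, and its window, 228 kb, was about as long as that of Chd9. In H3K79me2 the list ran up to Baz1b at 0.40, and in H3K79me3 from Chrac1 at -1.97, with 11 and 3 counts, to Pole3 at 0.60. Of 13 INO80 and SRCAP genes in the table, only 6 in H3K79me2 and 7 in H3K79me3 reached the minimum mean of 100. In D546R against WT 0 of them were called in either mark, where 0.865% and 8.92% of all genes were lower and 0.887% and 6.94% higher. All 13 ran from Ino80b at -1.42 to Vps72 at 1.27 in H3K79me2, and in H3K79me3 from Actr5, with 72 counts in WT and 21 in D546R, to Ino80b, with 2 and 30, and the genes named here had means under 100. The medians of the ISWI and INO80 lists were 0.16 and 0.13 in H3K79me2 and -0.21 and -0.21 in H3K79me3.

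**Figure D5:**
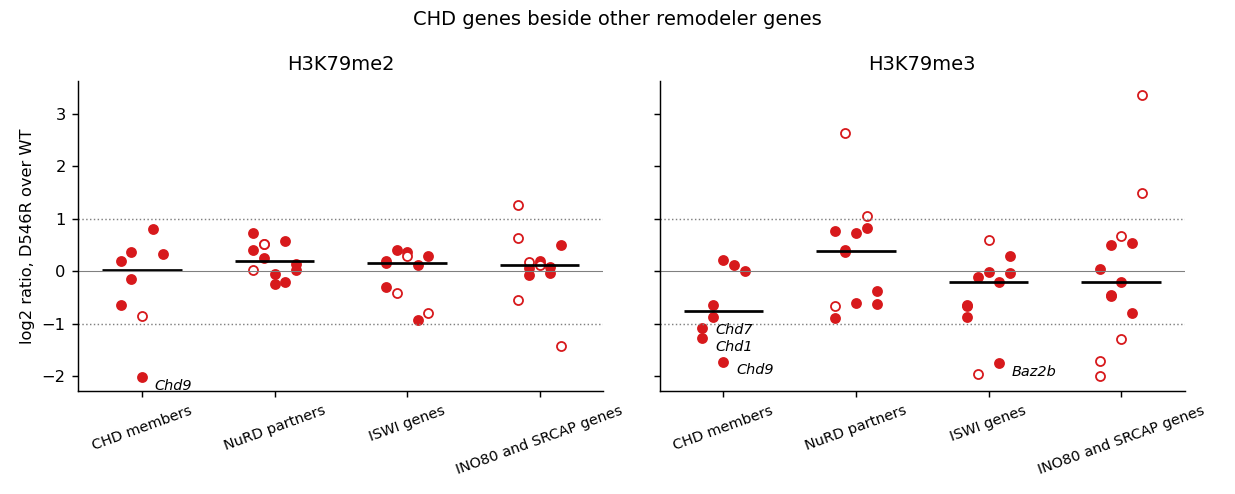
Log2 ratios of D546R over WT for the 8 CHD members, 12 NuRD partners, 11 ISWI genes and 13 INO80 and SRCAP genes; filled points have a mean normalised count of at least 100, open points less, black bars are medians of all points, dotted lines mark 2-fold, and genes past the rule are named. Chd9 is the named gene in H3K79me2, and Chd1, Chd7, Chd9 and Baz2b are those in H3K79me3.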

How the data were processed

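ChIP-seq of H3K79me2 and H3K79me3 was measured in 6 libraries, 1 per genotype and mark. Per the labels, fragments averaged 300 bp and reads of several runs were merged. The authors deposited raw read counts per gene window, per the file headers, without normalization; the sources used here do not say whether duplicate reads were removed. The submitters' processing notes name Bowtie, bedtools, DESeq and mm9, without roles.

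Size factors were the median of ratios over genes with counts in all 3 libraries of a mark. Log2 ratios used a prior count of 0.5, and intervals were exact conditional binomial (Clopper-Pearson). Reads per fragment were solved from the share of the 4591 autosomal windows under 5 kb with no count, given their lengths, and are upper estimates, since unreachable windows also read 0. With 1 library per group no test was possible. The scaling, counting intervals and fold rule were tested on simulated counts of independent reads. The fragment estimates and fragment intervals were not, and reads sharing a fragment, as in these libraries, were not simulated.

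Members, lists and rules were chosen with earlier results of these data known. Named were all members, the called genes and extremes of each remodeler list, neighbours within 1 Mb and the 5 genes nearest to Chd9 without predicted models, Mir and Snor names. The lists of silent genes and of fusion targets were not named gene by gene. Of the listed genes, Srcap was not used here. Alternatives were other scalings (edgeR 4.0.16 TMM among them), filters, a fold of 1.5, a prior of 5 and fragment intervals. Python 3.11.15, numpy 2.4.6, scipy 1.17.1, pandas 2.3.3 and R 4.3.3 were used.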

Additional observations from a re-analysis of the deposited data

How the results depend on the processing

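The Chd9 ratio stayed below 0 in all 6 comparisons under every scaling tried. Scaling by the summed silent genes moved it, for D546R, to -1.85 against WT and -1.56 against the other mutant in H3K79me2. In H3K79me3 they moved it to -1.63, to -0.55 in D544R against WT, and to -1.08 between the mutants. Their median ratio, a scale chosen after seeing the data, gave -1.84 and -0.26 (D544R) in H3K79me2, and -2.26, -1.10 (D544R) and -1.17 (between mutants) in H3K79me3. On this scale 5 members were past the rule in H3K79me3 in each mutant against WT, in place of 3 and 1. Beside them, 25.6% of all genes were lower in D546R and 23.7% in D544R, in place of 8.92% and 3.02%. At 1.5-fold 3 members were past the rule in D546R against WT in H3K79me2 (Chd4 higher, Chd7 and Chd9 lower) and 5 in H3K79me3. Between the mutants they were 2 and 5. The share of all genes past a 1.5-fold rule is not given here, so these counts cannot be set against the whole table. At a mean of at least 300 the Chd4 calls were lost, leaving 0 in D544R against WT and 1 between the mutants in H3K79me3. The summed silent genes left 2 members past the rule in D546R against WT in H3K79me3, without Chd7. Total counts, TMM, size factors over all 6 libraries, no filter and fragment intervals changed no count of members called. Over all genes in H3K79me3, fragment intervals lowered the calls to 601 lower and 461 higher in D546R against WT, 180 and 316 in D544R against WT, and 558 and 408 between the mutants. A prior of 5 moved no ratio of Chd9 beyond its counting interval. The cause of these shifts was not tested. Of all genes called in D546R against WT, 77 were lower and 79 higher in H3K79me2, against 100 and 59 with total counts and 42 and 260 with the silent median. In H3K79me3 they were 965 and 751, against 782 and 955 with the summed silent genes and 2797 and 192 with the silent median. In D544R against WT they were 327 and 472 in H3K79me3, against 484 and 342 and 2592 and 72 on those scales. Between the mutants they were 78 and 69 in H3K79me2, against 109 and 38 with total counts, 62 and 87 over all 6 libraries and 54 and 132 with the summed silent genes, and 899 and 625 in H3K79me3, against 608 and 1059 with the latter. With the median of all genes as the reference, the median WT level of the members in H3K79me2 was 2.79 times it, against 3.54 times the silent genes. No paired analysis was possible because each group had 1 library, and no library could be left out. Depth limited Chd3 most, whose fragment intervals spanned more than 2-fold.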
